A study of Homo sapiens with 2 samples.

Results

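The genes described here encode 38 proteins of the centromere and the kinetochore, out of 23752 genes and unnamed transcripts whose signal was well above background on at least 1 of 2 microarrays. They were chosen by name, from the core protein complexes of the structure, with earlier results of these data known. Each was read from the brightest array probe whose RefSeq transcript belongs to the gene. HepG2, a human liver cancer line that keeps much of the hepatocyte programme, was treated for 24 h with hawk tea extract (HTE), an extract of the leaves of a caffeine-free herbal tea plant, or with its solvent DMSO at 1‰ as the control. Both groups were kept in the same high-glucose medium with serum, and RNA of 1 sample per group was labelled with Cy3 and hybridised to 1 one-colour Agilent array. The dose of HTE is 200 μg/mL in the sample labels and 300 μg/mL in the name of the deposited array. The text of the study gives the dose of the array name, and also reports some loss of cell viability at that dose. The comparison asks how the RNA of these genes stood in HTE-treated cells relative to DMSO-treated cells.

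The centromere is the stretch of each chromosome that is marked by nucleosomes carrying the histone H3 variant CENP-A. On it rests the constitutive centromere-associated network (CCAN), and in mitosis the CCAN and CENP-A nucleosomes hold the outer kinetochore, where the KNL1, MIS12 and NDC80 complexes together bind spindle microtubules. The SKA complex strengthens that grip, the RZZ complex with Spindly brings dynein and checkpoint proteins, shugoshins protect sister-chromatid cohesion, and many of these genes are transcribed mainly in the later part of the cell cycle of dividing cells.

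Many late cell-cycle promoters hold a short word near the transcription start, the cell cycle genes homology region (CHR), which is known as a contact of the MuvB complexes. RefSeq promoter windows of GRCh38.p14, running from 250 bases before to 50 bases after a start, were at hand for 32 of the 38 genes. The 11 stretches of 30 bases below show the genes whose CHR word, TTTGAA or TTCGAA on either strand, lies within 25 bases of a start. They are written 5′ to 3′ along the strand of the gene, with the CHR words in capitals (TTCAAA is TTTGAA read on the other strand).
CENPA, chr2:26786026-26786055, + strand: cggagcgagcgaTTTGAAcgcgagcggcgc
OIP5, chr15:41332573-41332602, - strand: gcctggcgtgtaTTCGAAaggaaggcgccg
CENPN, chr16:81007205-81007234, + strand: gcaattggtggcTTTGAAggcgcggcgagc
CENPW, chr6:126340120-126340149, + strand: gttggcggcggaTTCGAAcgttcggactga
NDC80, chr18:2571542-2571571, + strand: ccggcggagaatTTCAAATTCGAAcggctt
NUF2, chr1:163321958-163321987, + strand: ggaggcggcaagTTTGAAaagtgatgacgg
SPC25, chr2:168890416-168890445, - strand: aagtgcactaggTTTGAAatcggaaagttg
ZWINT, chr10:56361273-56361302, - strand: gtcgactgtgacTTCAAAgtaatcttaggg
SPDL1, chr5:169583741-169583770, + strand: gcgggaactgcaTTCAAAtatcccaggcgc
SKA3, chr13:21176538-21176567, - strand: ccggcgccgagaTTCAAActagtggcggga
SGO1, chr3:20186192-20186221, - strand: gaggcggaaaatTTCGAAtgtggcggcggt

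The arrays held 62976 spots each. Of the 58717 spots that were not controls, 60.6% exceeded background clearly on the DMSO array and 56.6% on the HTE array, by the flag of the scanner software, and none was saturated. The 75th percentile of the processed signal was 4020 on the DMSO array and 3570 on the HTE array, and each level given here is the log2 of a probe's signal over that percentile. With 1 array per group no test between the groups was possible and no p value is given. Measures of array error stand in its place and leave out all biological spread. The error of a log2 ratio from the error model of the scanner software was between 0.204 and 0.254 for the 38 genes, with a median of 0.204. The SD of the log2 ratio over replicate spots of 1 probe had a median of 0.051 across 688 probes with at least 5 usable spots. All 10 hepatocyte markers were well above background on both arrays, with log2 ratios between -0.36 and 0.21. Among the markers of other cell types, CD3E of leukocytes, COL1A2 and THY1 of fibroblasts, and SI and FABP2 of intestine were not well above background on either array, and LYZ of leukocytes had no probe matched to it. The other 3 of the 5 markers of each type passed that flag on 1 array or both, among them CD14 of monocytes with a log2 ratio of -1.77, and their summed signal, in units of the 75th percentile, was 2.11 with DMSO and 1.93 with HTE for leukocytes, 0.366 and 0.342 for fibroblasts, and 1.01 and 1.06 for intestine.

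All 38 centromere and kinetochore genes read lower on the HTE array than on the DMSO array, whereas a log2 ratio below 0 was found for 49.0% of all 23752 genes and transcripts. Of the 38, 18 were at least 2-fold lower, against 3.03% of all genes and transcripts. None was at least 2-fold higher, against 5.25%. The median log2 ratio of HTE over DMSO was -0.94, or 1.92-fold lower, with quartiles at -1.12 and -0.63, and the median of all genes and transcripts was 0. All 38 were well above background on both arrays, whereas a gene dim on 1 array was entered as a bound, which could be 0. With measured values in place of such bounds, 5.56% of all genes and transcripts were at least 2-fold lower, with a median of -0.033. Within the lowest 10% of all log2 ratios lay 29 of the 38, within the lowest 5% lay 22, and within the lowest 1% lay 6, namely SKA1, KNL1, HJURP, SPC25, CENPO and KNTC1. In bulk RNA of this kind, fewer cells of a type and less RNA per cell cannot be told apart.

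**Figure D1:**
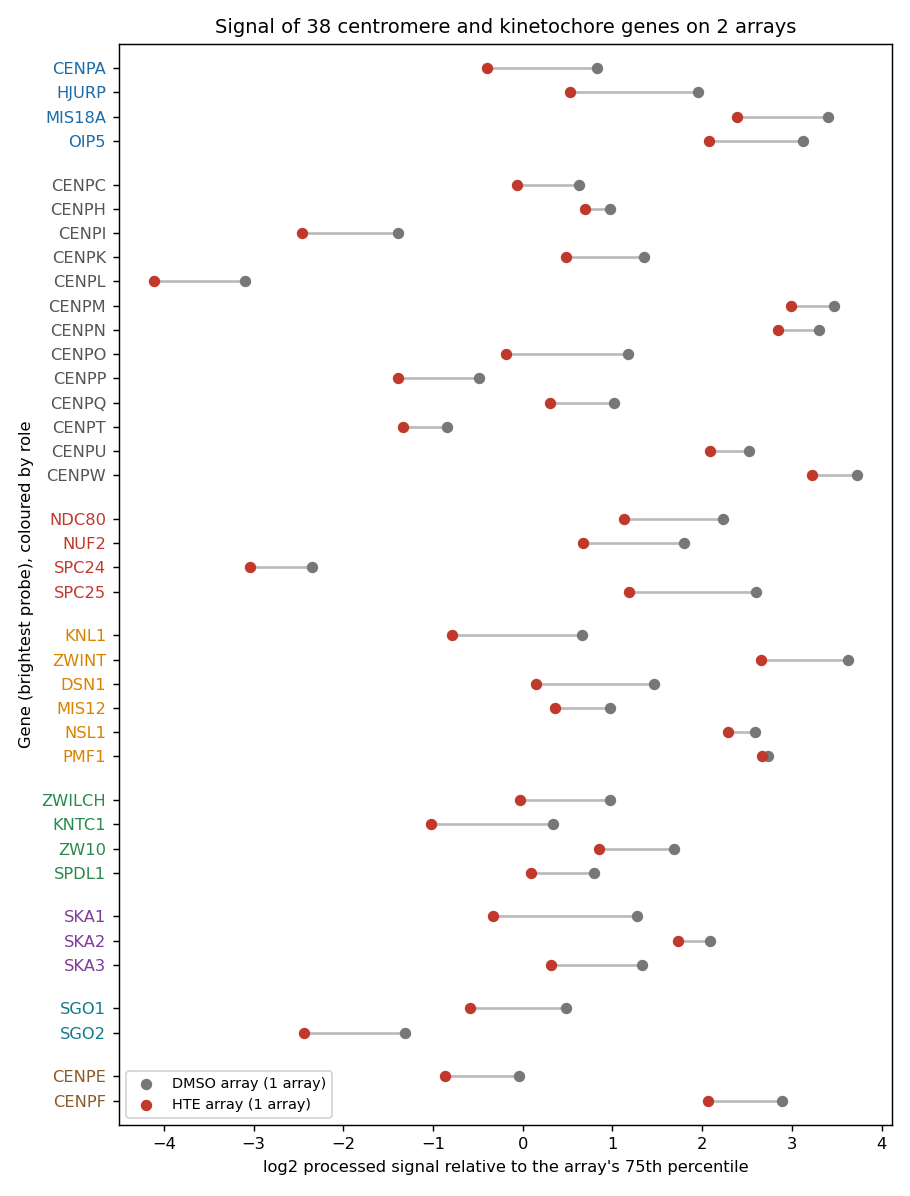
Level of each of the 38 genes, by its brightest probe, on the DMSO array (grey) and the HTE array (red), as log2 signal over the 75th percentile of the array, with genes grouped and coloured by complex. The red point lies left of the grey point for all 38 genes, by the widest gap for SKA1 and by the narrowest for PMF1; levels of different probes are not comparable.

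All 4 genes of CENP-A and its deposition machinery were at least 2-fold lower on the HTE array, with a median log2 ratio of -1.14. CENPA, the histone variant itself, read 0.83 on the DMSO array and -0.40 on the HTE array, a log2 ratio of -1.23. HJURP, the chaperone that carries new CENP-A to the centromere, went from 1.96 to 0.53, a ratio of -1.43. Both lay past the 2-fold line by more than 1 error of the error model. MIS18A, a subunit of the Mis18 complex that licenses the centromere for new CENP-A, stood at 3.40 with DMSO and 2.39 with HTE, a ratio of -1.01. OIP5, the other Mis18 subunit, stood at 3.13 and 2.08, a ratio of -1.05. These 2 genes lay within 1 error of the 2-fold line, so their place beyond it was not fixed by the measurement.

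The CCAN genes were lower by less on the whole. Of 13 CCAN genes 3 were at least 2-fold lower, with a median log2 ratio of -0.68, whereas 15 of the 25 other genes were at least 2-fold lower, with a median of -1.02. CENPC, which binds the CENP-A nucleosome and reaches out to the MIS12 complex, read 0.62 with DMSO and -0.061 with HTE, a log2 ratio of -0.68. CENPN and CENPL form the pair that reads CENP-A nucleosomes next to it. For CENPN the brightest probe read 3.30 and 2.84, a ratio of -0.46, and its other 2 probes gave -0.86 and -1.01. CENPL, which had the widest error of the 38 at 0.25, read -3.10 and -4.11, a ratio of -1.01.

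Within the CENP-H/I/K/M group, which bridges the nucleosome-binding subunits and the outer ones, the ratios ran from near 0 to just past 2-fold. CENPI read -1.39 on the DMSO array and -2.46 on the HTE array, a log2 ratio of -1.07, and its second probe gave -0.81, short of 2-fold. CENPK read 1.36 and 0.48, a ratio of -0.88. CENPM read 3.47 and 2.99, a ratio of -0.49. CENPH was measured on 9 usable spots of 1 probe and stood closest to 0 in this group, at 0.97 and 0.70, a ratio of -0.27. This lay within 2 errors of 0 by the error model, although its spots did not overlap between the arrays.

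The CENP-O/P/Q/U subunits form an arm that gathers kinases and helps attachment. CENPO had the lowest ratio in the CCAN, from 1.17 with DMSO to -0.19 with HTE, a log2 ratio of -1.36. CENPP stood at -0.49 and -1.39, a ratio of -0.90, and its second probe gave -0.51. CENPQ read 1.02 and 0.30, a ratio of -0.72, and CENPU, the docking subunit for the kinase PLK1, read 2.52 and 2.09, a ratio of -0.43. Only CENPO of these 4 was thus beyond the 2-fold line. Of the histone-fold subunits, CENPT, an independent receptor of the NDC80 complex, went from -0.84 to -1.33, a ratio of -0.49, and its partner CENPW from 3.73 to 3.22, a ratio of -0.51.

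In the NDC80 complex, the main microtubule-binding rod of the kinetochore, 3 of 4 subunits were at least 2-fold lower and the median log2 ratio was -1.11. NDC80, whose head grips the microtubule, read 2.23 on the DMSO array and 1.12 on the HTE array, a ratio of -1.11. Its head partner NUF2 read 1.80 and 0.68, a ratio of -1.12. The subunits at the other end of the rod, which bind the inner receptors, were unlike each other. SPC25 went from 2.60 to 1.19, a ratio of -1.42, and SPC24 from -2.35 to -3.04, a ratio of -0.68 with an error of 0.22.

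KNL1, the large scaffold that recruits the checkpoint kinase BUB1, read 0.66 with DMSO and -0.78 with HTE over 8 usable spots, a log2 ratio of -1.45. This was next to that of SKA1 in the order of the 38, with HJURP and SPC25 less than 1 error away. ZWINT, the KNL1 partner that brings in the RZZ complex, read 3.63 and 2.66, a ratio of -0.97, just short of 2-fold. The MIS12 complex, the hub between the inner and outer layers, held subunits far apart in their ratios. DSN1, its subunit regulated by Aurora B, read 1.46 and 0.15, a ratio of -1.31. MIS12 went from 0.97 to 0.36, a ratio of -0.61, NSL1 from 2.59 to 2.29, a ratio of -0.30, and PMF1 from 2.74 to 2.67, a ratio of -0.068. Of these 4 subunits, NSL1 and PMF1 lay within 2 errors of 0, and the second PMF1 probe was the one probe of 51 with a ratio above 0, at 0.92 with DMSO and 1.06 with HTE.

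**Figure D2:**
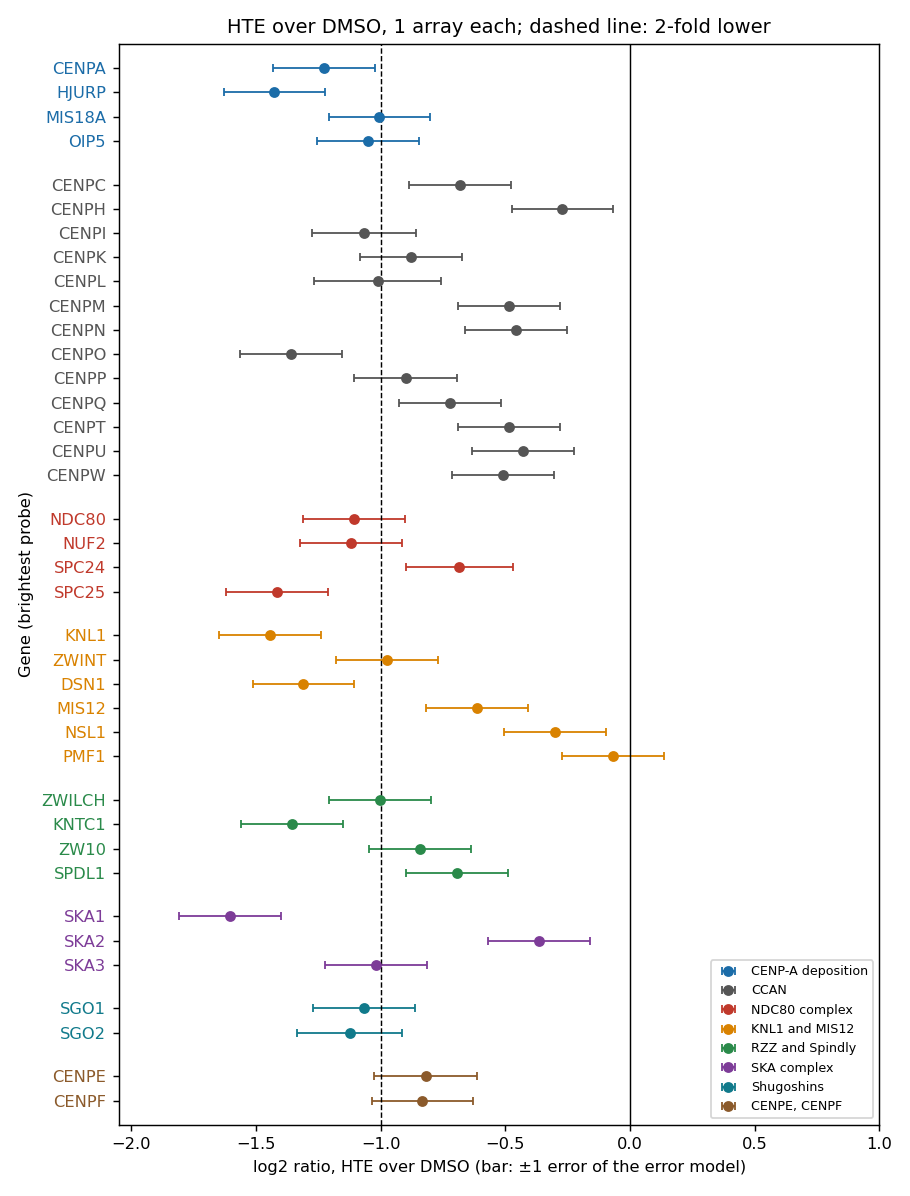
Log2 ratio of HTE over DMSO for each gene by its brightest probe, with bars of 1 error of the scanner software's error model to each side, from 1 array per group; the dashed line marks 2-fold lower. All 38 points lie below 0, 18 lie at or beyond the 2-fold line, and 16 lie within 1 error of that line.

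The RZZ complex and Spindly carry dynein to the kinetochore. KNTC1, the ROD subunit, was lowest, at 0.33 on the DMSO array and -1.02 on the HTE array over 10 spots, a log2 ratio of -1.35. ZWILCH read 0.97 and -0.028, so that its HTE signal was 49.9% of its DMSO signal, on the 2-fold line, and ZW10 read 1.69 and 0.85, a ratio of -0.84. SPDL1, which encodes Spindly, the adaptor between RZZ and dynein, read 0.79 and 0.095, a ratio of -0.70, and its second probe gave -0.77. The ratio of KNTC1 differed from those of its partners ZW10 and SPDL1 by more than the error of each single ratio. An error of these differences was not computed.

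Of the SKA complex, which tracks microtubule ends, SKA1 had the lowest ratio of the 38 genes. Its level went from 1.27 with DMSO to -0.34 with HTE, a log2 ratio of -1.61 or 3.04-fold lower, and it held this place under every processing alternative tried. SKA3 read 1.33 and 0.31, a ratio of -1.02. SKA2 stood closer to 0, with 2.09 and 1.73 for a ratio of -0.37, and its second probe gave -0.84.

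Both shugoshins were just beyond 2-fold. SGO1, which shields centromeric cohesin in mitosis, read 0.48 with DMSO and -0.59 with HTE, a log2 ratio of -1.07, and its second probe gave -0.99. SGO2, its relative that helps to place the microtubule depolymerase KIF2C, read -1.31 and -2.43, a ratio of -1.12. The last pair belongs to the fibrous corona, the outermost layer. CENPE, a kinesin that moves chromosomes to the spindle equator, read -0.046 and -0.87, a ratio of -0.82, and CENPF, a large coiled-coil protein that binds microtubules, read 2.89 and 2.06, a ratio of -0.83. Neither reached 2-fold by its brightest probe, but a second CENPF probe went from -0.52 to -2.26, a ratio of -1.74.

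The 38 genes were read by 51 probes in all, and 50 of these had a ratio below 0 while 21 were at least 2-fold lower. Of the 12 genes with several probes, 9 had probes within 0.5 of each other on the log2 scale, and the median spread was 0.23. The others were CENPF, CENPN and KNL1. The second KNL1 probe was not well above background on the HTE array. Its measured ratio was -0.30, and the bound set by the lowest signal well above background there was -0.22. For 5 genes the probes fell on both sides of the 2-fold line. Levels of isoforms could not be followed, since the positions of the probes within the transcripts are not used here.

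**Figure D3:**
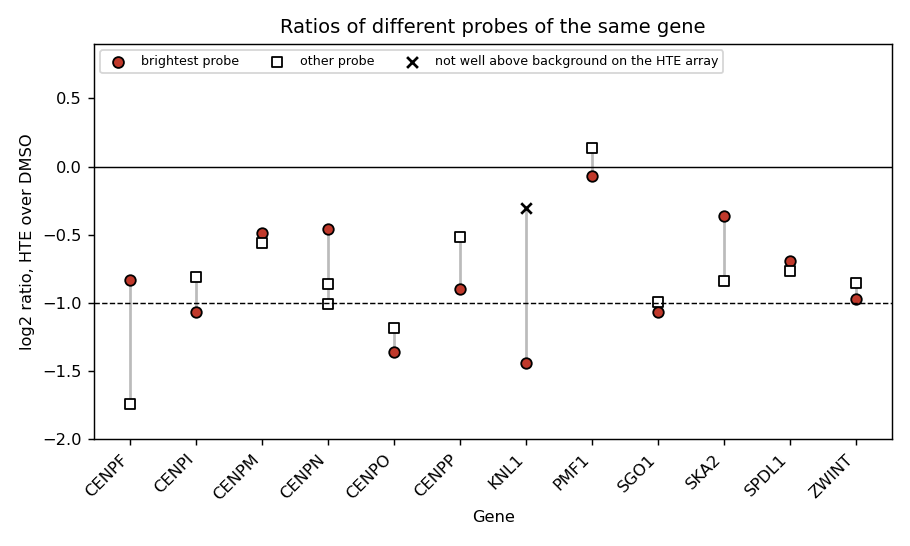
Log2 ratio of HTE over DMSO for every probe of the 12 genes with more than 1 probe; filled circles are the brightest probe, open squares the others, the cross a probe dim on the HTE array, and the dashed line 2-fold lower. The probes of CENPF (-0.83 and -1.74) and KNL1 (-1.45 and a measured -0.30 for the dim probe) lie farthest apart, and the open square of PMF1 is the one point above 0.

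The spots of single probes show how finely the arrays themselves were read. Probes of 6 genes were printed as replicate spots, and in each of the 6 every HTE spot lay below every DMSO spot. For KNTC1 the 10 DMSO spots lay between 0.27 and 0.41 with a median of 0.34, and the HTE spots between -1.06 and -0.98 with a median of -1.01. For KNL1 the 8 DMSO spots lay between 0.59 and 0.69 with a median of 0.65, and the HTE spots between -0.83 and -0.74 with a median of -0.79. At the other end, the 9 DMSO spots of CENPH lay between 0.91 and 1.02 with a median of 0.99, and its HTE spots between 0.67 and 0.75 with a median of 0.69. The SD of the log2 ratio over spots was between 0.030 and 0.087 for the 6 probes. Spots of an array share 1 RNA sample, so this spread says nothing of how cultures vary.

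**Figure D4:**
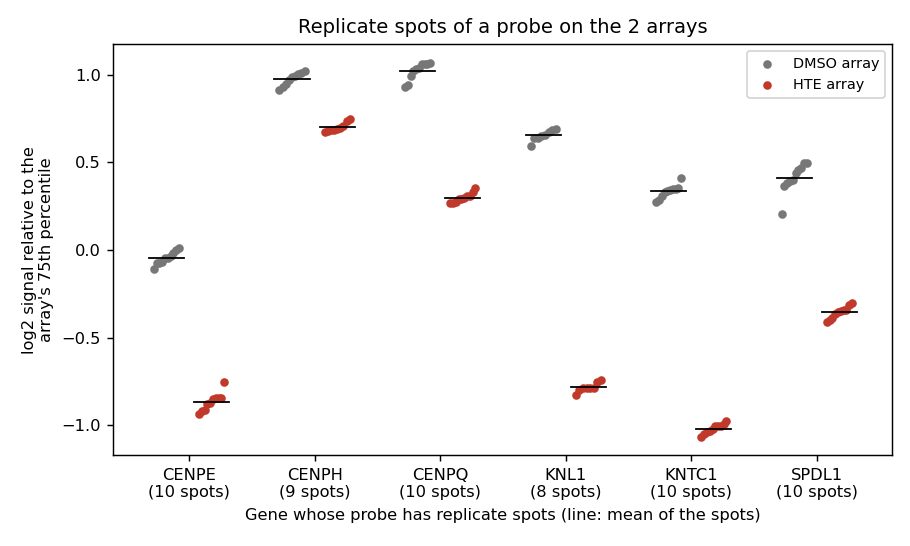
Log2 signal over the 75th percentile of the array for each replicate spot of 6 probes, with DMSO spots in grey, HTE spots in red, and a line at the mean of the spots. The spots of both arrays do not overlap for any of the 6, with a gap that is widest for KNL1 and KNTC1 and narrowest for CENPH; the SPDL1 spots belong to its second probe.

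By the error model, 34 of the 38 ratios lay more than 2 errors below 0, and the other 4 were those of CENPH, NSL1, PMF1 and SKA2. Only 8 of the 18 genes at least 2-fold lower lay past that line by more than 1 error, and 10 of them lay within 1 error of it. A further 6 genes that did not reach 2-fold lay within 1 error of it, namely ZWINT, CENPP, CENPK, ZW10, CENPF and CENPE. Of the 12029 named genes within the signal range of the 38, 2.92% were at least 2-fold lower. Among the dimmer 19 of the 38 the median ratio was -1.01 and 11 were at least 2-fold lower, and among the brighter 19 the median was -0.84 and 7 were at least 2-fold lower.

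**Figure D5:**
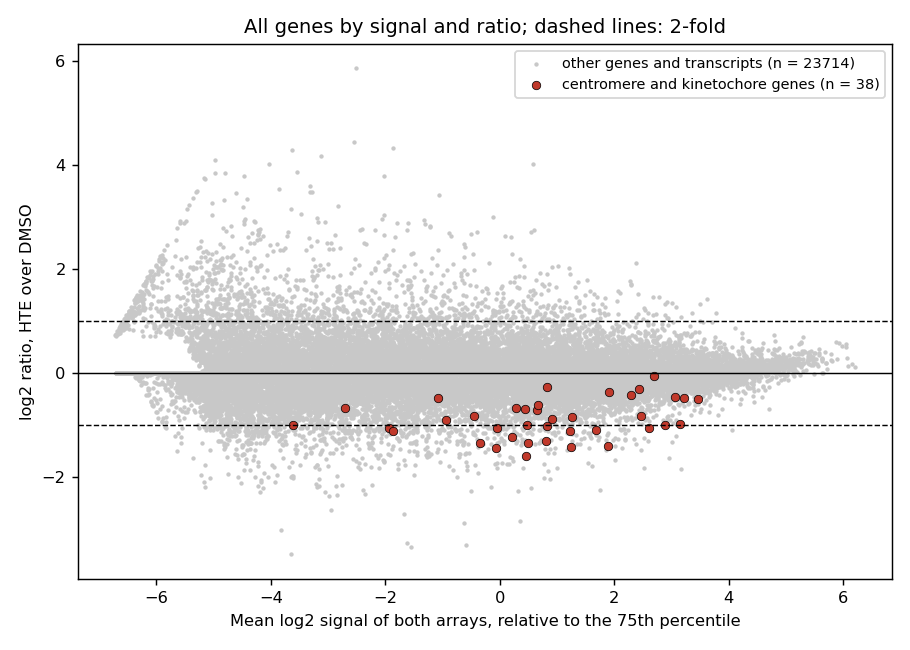
Log2 ratio of HTE over DMSO against the mean log2 signal of both arrays, each relative to the 75th percentile, for the 38 genes (red) and 23714 other genes and transcripts (grey), with 2-fold in either direction as dashed lines. The red points lie below 0 over the whole span of their signal; the slanted edges and the flat line at 0 on the left are probes dim on 1 array, for which a bound or no change was entered.

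The wider centromere and kinetochore list held 45 further genes, such as nucleoporins, cohesin subunits, phosphatases and microtubule plus-end proteins that also act at this structure. Their median log2 ratio was -0.21, and 36 had a ratio below 0, against 49.0% of all genes and transcripts. None was at least 2-fold higher, against 5.25% of all, and 4 were at least 2-fold lower, against 3.03%. Among these were KIF2C, the microtubule depolymerase of the centromere, at -1.23, SPAG5, a spindle protein also called astrin, at -1.09, and HASPIN, the kinase that marks histone H3 for the passenger complex, at -1.03. The highest was CENPB, the protein that binds the CENP-B box of satellite DNA, which read 0.31 with DMSO and 0.74 with HTE, a ratio of 0.44. The 3 CCAN subunits in this list, named here after their values were seen, had ratios of -0.34 for ITGB3BP, -0.069 for CENPS and -0.14 for CENPX. Many proteins of this wider list also serve outside mitosis.

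The checkpoint and chromosomal passenger genes, listed here with the kinase gene PLK1, encode products that load onto the kinetochore and centromere. All 12 read lower by their brightest probe, against 49.0% of all genes and transcripts. Of the 12, 5 were at least 2-fold lower, against 3.03% of all. The median log2 ratio of the 12 was -0.82. PLK1, the kinase that CENPU docks, read 0.82 on the DMSO array and -0.91 on the HTE array, a ratio of -1.74. BUB1B, the checkpoint protein BubR1, gave -1.54, and BUB1, the kinase that KNL1 recruits, -1.05. INCENP and CDCA8, scaffold subunits of the passenger complex, gave -1.22 and -1.19. AURKB and BIRC5, subunits of the same complex, gave -0.33 and -0.52, short of 2-fold. The highest was BUB3, which KNL1 also binds, at -0.14, and its second probe gave a ratio above 0, at 0.16.

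Markers of dividing cells were lower as well. MKI67, the Ki-67 antigen, read 1.46 with DMSO and -0.81 with HTE, a log2 ratio of -2.27, and its other 2 probes gave -1.60 and -1.01. TOP2A, the topoisomerase of mitotic chromosomes, gave -1.31 and PCNA, the replication clamp, -0.50. Their part in the values of the 38 genes was not tested. The 13 reference genes had ratios from -0.49 for TBP to 0.43 for GAPDH, none past 2-fold, and a median of 0.089 that turned to -0.082 on unscaled signals, to -0.0079 after quantile normalization and to -1.28 after scaling to the spike-in probes. Without any scaling 23 of the 38 genes were at least 2-fold lower, against 5.09% of all genes and transcripts. With spike-in scaling all 38 were, together with 77.9% of all genes. Counted over all changed genes and transcripts, 36.6% were lower rather than higher in the scaling used here, 57.8% without scaling, and 99.4% with spike-in scaling.

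In the promoter windows, the CHR word occurred in 18 of the 38 windows of the 32 genes, or 47.4%, and in 16.4% of all 35116 RefSeq windows of the same length. Within 25 bases of the start, a limit chosen after the sequences had been seen, it occurred in 11 windows, or 28.9%, and in 2.39% of all windows. The sequence CCAAT, on either strand, occurred in 65.8% of the windows of these genes and in 34.6% of all. An E2F word (TTTGGCGC or TTTCGCGC or TTTCCCGC or TTTGCCGC, on either strand) occurred in 13.2% and in 3.31%. Of the 11 genes whose stretches are printed above, 7 were at least 2-fold lower, with a median log2 ratio of -1.05, and of the 21 other genes with a window 7 were as well, with a median of -0.83. With the CHR word anywhere in the window the medians were -1.05 for 17 genes with it and -0.72 for 15 without. For CCAAT the split ran the other way, since 7 of the 22 genes with it were at least 2-fold lower, with a median of -0.84, and 7 of the 10 without it, with a median of -1.09. The 4 genes with an E2F word had a median of -0.83 and the 28 without one of -0.89. SPC25, with the word spanning the start, had a ratio of -1.42, but CENPN, with the word just after the start, had -0.46. SKA1, KNTC1, KNL1, CENPO, HJURP and DSN1, which had ratios of -1.31 or lower, are not among the 11. The windows of SKA1, CENPO and HJURP hold the CHR word farther than 25 bases from the start, that of DSN1 holds none, and KNL1 and KNTC1 had no window. A match of letters is a description of the sequence and shows no binding.

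Related loci limit what a probe can be said to read. RefSeq lists pseudogenes named after 7 of the 38 genes (CENPC, CENPI, CENPN, CENPP, CENPU, SKA2 and SGO1), antisense RNAs named after 4 (MIS18A, OIP5, CENPN and SGO1), and a readthrough transcript of PMF1 with BGLAP. Probe sequences were not used here, so shared hybridisation with these loci was not checked.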

How the data were processed

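The 38 genes and the gene lists were chosen with earlier results of these data known. Total RNA of HepG2 cells treated with DMSO or HTE for 24 h was measured on 1 Agilent SurePrint G3 array per group, both on the same slide. The deposited intensity values are the processed signals of the authors' Agilent Feature Extraction software (version 11.5.1.1 in the file headers, 10.7 per the labels), background-subtracted, detrended and not scaled between arrays; the authors also deposited 0 or 1 flags. Log2 signals were taken relative to the 75th percentile over all non-control spots of an array, and outlier spots were left out. Replicate spots were averaged, and probes were kept where at least 0.5 of their spots were well above background on 1 array. For a probe dim on 1 array, the ratio was taken as a bound. Of 50599 probes, 28174 were named through RefSeq accessions in the GRCh38.p14 table, and 29680 were kept. The brightest probe stood for a gene, and a log2 ratio of 1 (2-fold) was the cutoff, which the study also used.

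All 38 genes were named, ordered by role. From the wider centromere list, the checkpoint list and the reference genes the lowest, the highest and each gene past 2-fold were named. MKI67, PCNA and TOP2A were named too, as were AURKB and BIRC5 of the passenger complex. Further probes were given where they differed in sign or by over 0.5, and also for some genes whose probes differed by less. 1 gene of the wider list is counted but not reported here by name. With 1 array per group no test was made, and the number of arrays limits the precision. Alternatives were other background correction (normexp of limma 3.58.1 in R 4.3.3, offset 50, on median signals), scaling, probe filters, outlier spots, probe averaging, subtraction of neighbouring spots, and cutoffs of 1.5 and 3 fold. The analysis ran in Python 3.11.15 with pandas 2.3.3 and was tested on simulated data. Promoter sequences are from RefSeq. Coordinates of the array design, which is on another build, were not used.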

Additional observations from a re-analysis of the deposited data

How the results depend on the processing

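The median log2 ratio of the 38 genes was -0.88 with normexp background correction, -1.11 without scaling and -1.02 with median scaling. It was -2.31 with scaling to the E1A spike-in probes, whose own log2 ratio of HTE over DMSO was 1.20 on unscaled signals. With spike-in scaling 38 of the 38 genes were at least 2-fold lower, and 43 of the 45 further centromere and kinetochore genes, beside 77.9% of all genes. Without scaling 7 of these further genes were, beside 5.09% of all genes. At a cutoff of 1.5-fold the counts were 29 and 10, and at 3-fold 1 and 0. The share of all genes at these cutoffs is not given here. The median of all genes moved to -0.16 without scaling, to -1.36 with spike-in scaling and to 0.21 with no filter on dim probes, and relative to the first and second of these shifts the median of the 38 genes was -0.95. The share of changed genes that were lower was 45.5% with median scaling, 43.9% with no filter on dim probes and 49.6% where a dim probe kept its measured value, against 36.6% as reported. Under the 11 alternatives other than the cutoffs each of the 38 ratios stayed below 0, except that of PMF1 at 0.033 as a mean over its probes. In the setting reported and the 10 alternatives other than spike-in scaling and the cutoffs, 12 genes were at least 2-fold lower throughout, 15 never were, and 11 were in some. In the normexp setting 13 genes were at least 2-fold lower, against 1.97% of all genes. After quantile normalization 16 were, against 3.47% of all genes. The cause of these differences was not tested.

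No paired analysis was possible because each group has 1 array. Neither was leaving out a replicate. Array and treatment cannot be told apart, and among the 38 genes the ratio of CENPL carries the widest error.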
